A study of Mus musculus with 6 samples.

Results

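Genes that encode corepressors and their chromatin partners were examined for peaks of the repressor form of GLI3 (GLI3R). They were Ski, Skil, Ncor1, Chd3, Chd4, Hdac1, Hdac2, Sin3a and Sin3b, 9 of the 21883 protein-coding genes compared. A peak was assigned to a gene when its summit lay inside the gene or within 50 kb of it, and the same peak could be assigned to several genes. The genes were selected on the positions of the peaks in both lists and with the peak heights known, so their peaks are described here without a test. The cells were cardiac progenitors derived from mouse embryonic stem cells of the A2Lox.cre background, from the line named GLI3R-FTA, and were collected on day 6. All carried the tagged GLI3R, which doxycycline induces. The treated cells received 500 ng/ml doxycycline for 24 h from day 5, and the others received none. Streptavidin beads recovered the tagged protein in 4 of the 6 libraries, with 2 pull-downs and 1 input per condition. The labels do not say whether the line is a single clone.

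In the absence of Hedgehog ligand, GLI3R represses the genes that the pathway would otherwise switch on. Corepressors are proteins that DNA-binding repressors recruit to silence genes. SKI has been reported to bind GLI3 and to take part in its repression, and SKI and its relative SnoN, the product of Skil, also restrain TGF-beta signalling by binding SMAD proteins. NCOR1 and the SIN3 proteins are scaffolds that bring histone deacetylases such as HDAC1 and HDAC2 to chromatin. CHD3 and CHD4 are the ATP-driven remodellers of the NuRD complex, which carries the same deacetylases. The peaks described here lie near the genes for these proteins, and the presence of the proteins on chromatin was not measured.

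Each condition had 1 peak list, with 3640 peaks with doxycycline and 4379 without, so no value has a replicate error. The pileup, the number of fragments over a summit, had a median of 7 with doxycycline and 5 without, and the smallest listed pileups were 5 and 4. Ptch1, the Hedgehog receptor and a known GLI target, had 6 doxycycline summits and 0 untreated summits within 50 kb, which serves as a check of the condition labels. The cell type could not be checked against marker expression, since only binding was measured.

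With doxycycline, 5 of the 9 genes had a summit within 50 kb (Chd3, Ski, Skil, Hdac1 and Chd4). Over all protein-coding genes the share was 20.0%, and among the 6756 genes as long as the members (26.2 to 142 kb) it was 22.5%. Without doxycycline, 3 of the 9 had one (Skil, Chd4 and Hdac2), beside 18.8% of all genes and 22.5% of genes of that length. Skil and Chd4 were in both sets (4.97% of all genes were), and Ncor1, Sin3a and Sin3b were in neither. The 6 doxycycline and 5 untreated peaks shared no position, with 0 overlapping the other list by 1 bp or more. In the wider corepressor set described below, 1 of 26 doxycycline peaks and 1 of 20 untreated peaks overlapped the other list. The share over all peaks is not given here, so the lack of overlap is not read as a trait of these genes. With a −log10 q of at least 5, Chd3, Ski and Skil remained with doxycycline (8.41% of all genes did) and Skil alone remained without (1.97%). Because these peaks belong to the rule by which the genes were chosen, the counts are given beside the background only as a description.

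**Figure D1:**
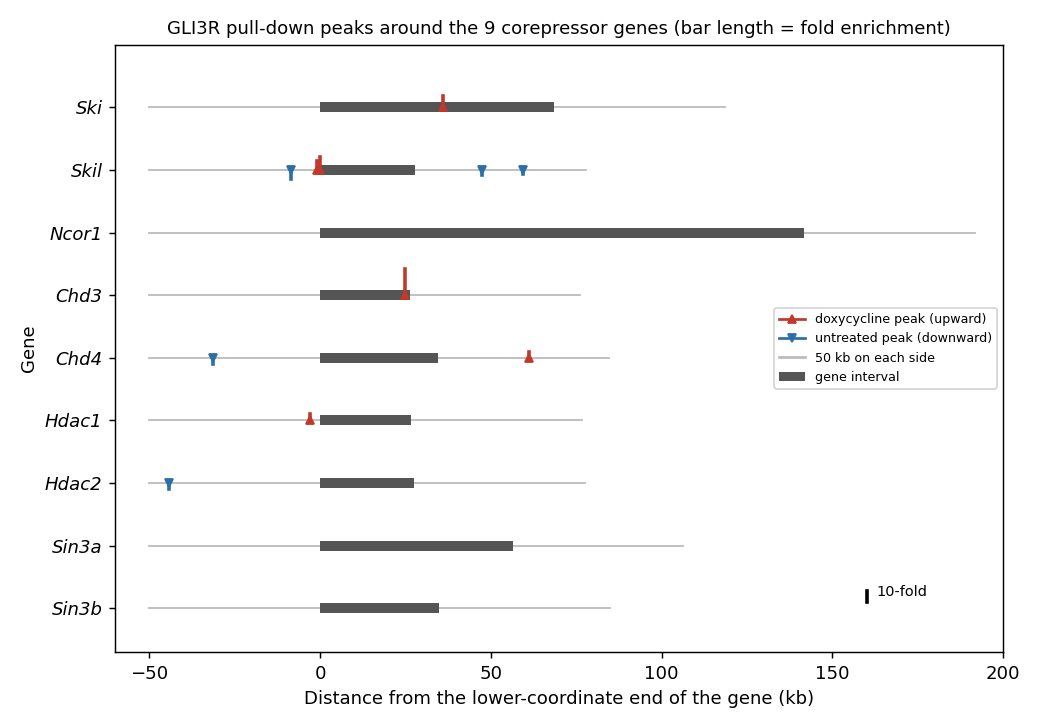
Position of each peak summit relative to its gene, in kb from the gene's lower-coordinate end, with the gene as a dark bar and 50 kb on each side as a grey line. Upward bars are doxycycline peaks and downward bars untreated peaks, with length showing fold enrichment; Chd3 (22.7-fold) and Skil (11.0-fold) carry the tallest bars, and Ncor1, Sin3a and Sin3b carry none.

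Chd3 held the strongest of these peaks, at chr11:69367868-69368322 on mm10. The summit lay inside the gene, 1.38 kb from its higher-coordinate end, with 30 fragments (exact 95% Poisson interval 20.2 to 42.8) against a local expectation of 0.368 fragments. The enrichment was 22.7-fold with a −log10 q of 42.1, which placed the peak at rank 27 of 3640, with 0.714% of the list above it. A summit inside the gene occurred for 6.16% of all genes with doxycycline and for 5.96% without, and among the members Chd3 and Ski had one with doxycycline and none had one without. The untreated list had no summit within 50 kb of Chd3, and its nearest lay 199 kb from the gene. The Chd3 summit was also within 50 kb of 7 further protein-coding genes, among them Kdm6b, a histone H3 lysine 27 demethylase singled out after its position was seen, at 30.4 kb, but none lay nearer to it than Chd3. When all 4387 genes with a doxycycline summit were ranked by their highest −log10 q, leaving out genes that share the Chd3 peak, the closest neighbours of Chd3 were Sln and Slc35f2 above it (1 peak near both, 27.8-fold) and Pwwp2b (22.0-fold) and Rnf220 (22.5-fold) below. Of these, Sln, Slc35f2 and Rnf220 had untreated summits within 50 kb (1, 2 and 1), and Pwwp2b, like Chd3, had 0.

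Chd4, the other NuRD remodeller of the set, had a weak peak in each list. The doxycycline summit (chr6:125156966-125157124) had 6 fragments (2.20 to 13.1) at 5.12-fold, and lay 26.5 kb beyond the higher-coordinate end of Chd4. It fell inside Iffo1, and Gapdh (4.75 kb), Ncapd2 (10.9 kb) and Nop2 (12.3 kb) were also nearer to it than Chd4. The untreated summit (chr6:125064611-125064757) also had 6 fragments, at 5.50-fold because the expectation was lower in that list, and lay 31.3 kb from the opposite end. Acrbp (1.46 kb), Lpar5 (3.12 kb), Ing4 (15.5 kb) and Zfp384 (26.9 kb) were nearer to that summit. The counting interval of the Chd4 doxycycline peak ended below that of the Chd3 peak, and in both conditions the summits assigned to Chd4 had another gene as the nearest.

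Skil was the member with the most peaks. Its doxycycline peaks, at chr3:31094942-31095517 and chr3:31093958-31094534, had summits 33 bp and 0.886 kb outside the lower-coordinate end of the gene. The nearer summit had 14 fragments (7.65 to 23.5), 10.96-fold and a −log10 q of 13.8 (rank 165), and the other 10 fragments (4.80 to 18.4), 8.04-fold and 7.95 (rank 428). The summits were 853 bp apart, and 2.39% of doxycycline peaks had another summit within 1 kb. A summit within 1 kb of either end occurred for 1.49% of genes with doxycycline and 0.416% without. At least 2 doxycycline summits within 50 kb were found for 3.56% of genes.

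Skil also had 3 untreated summits, none of them at either end of the gene, where 0.594% of all genes had 3 or more within 50 kb. The strongest (chr3:31086584-31086738) had 9 fragments (4.12 to 17.1), 7.86-fold and a −log10 q of 7.43 (rank 132 of 4379), 8.41 kb from the gene and 7.53 kb from the nearer of the doxycycline summits. The others had 5 fragments at 19.5 kb and 4 fragments at 31.6 kb, and Cldn11, a tight junction gene, was nearer to both, with the last summit inside it. The Skil peaks of the lists thus lay at different positions, and their heights are not compared, since the lists differ in background.

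Ski, the founding member of that family, held 1 doxycycline peak (chr4:155189796-155190051) with 12 fragments (6.20 to 21.0), 9.50-fold and a −log10 q of 10.8 (rank 266). The summit was inside the gene, 32.6 kb downstream of the RefSeq start site, which is on the minus strand at chr4 position 155222535. The nearest untreated summit was 296 kb from Ski. Only Morn1 (44.4 kb) was otherwise within 50 kb of the Ski summit. Ski and Skil thus both had doxycycline peaks past a −log10 q of 5 for which they were the nearest gene. That of Ski was deep in the gene and those of Skil were at its lower-coordinate end. Which end of Skil holds its start is not given here.

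The deacetylase genes had weak peaks in opposite lists. Hdac1 had a doxycycline peak (chr4:129513008-129513195) with 7 fragments (2.81 to 14.4), 5.85-fold and a −log10 q of 4.17, close to the list's median of 5.50-fold. The summit was 2.98 kb outside Hdac1, but it lay 454 bp upstream of the start of Marcksl1, a MARCKS-related actin-binding protein gene and the nearest gene. Hdac2 had no doxycycline summit nearer than 298 kb. Its untreated peak (chr10:36929922-36930068) had 5 fragments (1.62 to 11.7), 4.72-fold and a −log10 q of 2.52, a value shared by 28.2% of the untreated list. At 44.3 kb it was the assigned summit closest to the 50 kb limit, and no further summit of either list lay within 100 kb of any member.

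**Figure D2:**
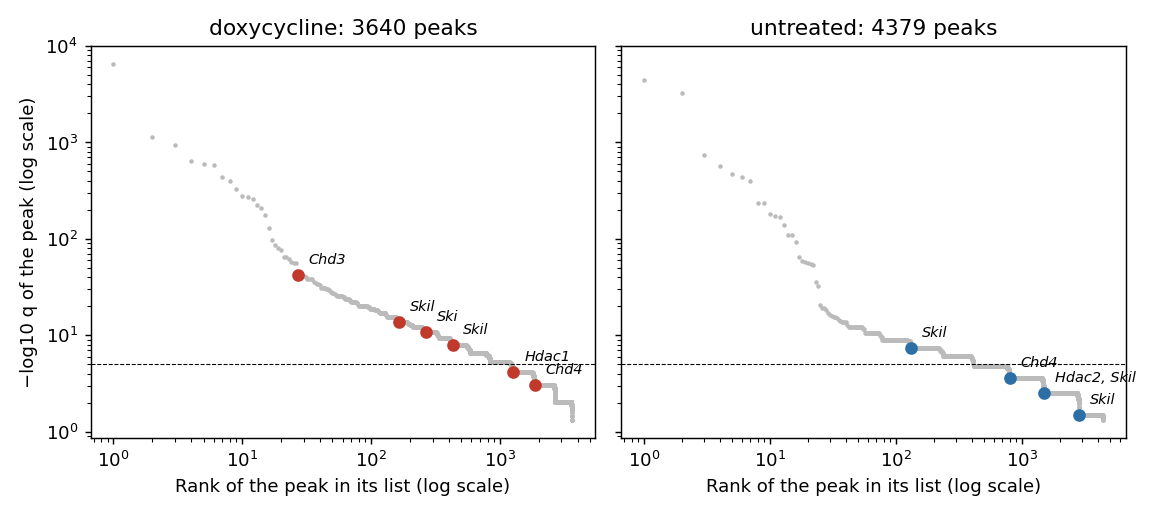
Peaks of each list ordered by −log10 q (both axes log scale, grey points), with the peaks assigned to the members coloured and named; the dashed line marks a −log10 q of 5. Chd3 sits at rank 27 of the doxycycline list, and of the untreated member peaks only Skil at rank 132 is above the line.

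The scaffold genes had no assigned peak, which in each list was the more common state. Only 20.0% of all genes had a summit within 50 kb with doxycycline and 18.8% without. For Ncor1 the nearest summits were 567 kb away with doxycycline and 496 kb without, for Sin3a 178 and 356 kb, and for Sin3b 596 and 155 kb. Ncor1 is the longest of the members at 142 kb. A summit at background needed 5 fragments (4.39-fold) to enter the doxycycline list and 4 (3.93-fold) to enter the untreated list. Those folds hold at the most frequent local expectation of each list. Absence from a list thus does not show that binding was absent, or which pileup was present.

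The members' peaks stood above a local expectation that was the same for all of them within a list. Whether the input libraries entered that expectation is not said in the labels, so each fold is an enrichment over the caller's local estimate, of which the source is unknown here. The local expectation was 0.368 fragments at all 6 doxycycline summits and 0.272 at all 5 untreated summits, the most frequent value of each list, so the fold enrichments differ within a list only through the pileup. Doxycycline pileups ran from 6 to 30 and untreated pileups from 4 to 9. Because the background differs between the lists, the fold values of 1 list are not on the scale of the other. There were 4 doxycycline peaks and 1 untreated peak that had a −log10 q of at least 5, and the remaining 2 and 4 rest on 4 to 7 fragments. The whole lists also differed in this, with 1211 of 3640 doxycycline peaks and 412 of 4379 untreated peaks at or above that value.

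**Figure D3:**
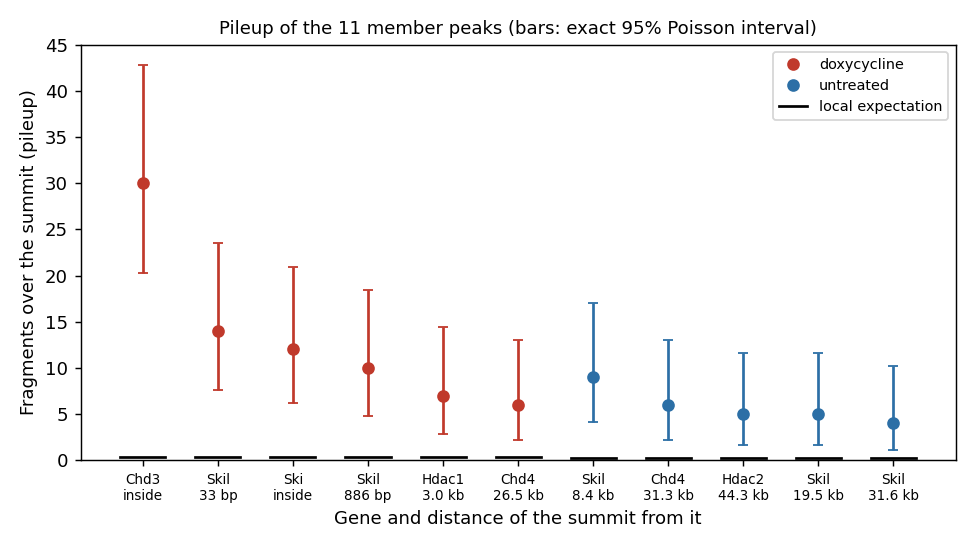
Fragments over the summit (y axis) of the 11 assigned peaks, with exact 95% Poisson intervals for counting error and the local expectation as a black line; labels give the gene and the distance of the summit. Chd3 has the highest pileup at 30 fragments, its interval reaches down into those of Ski and the nearer Skil doxycycline peak, and within each list the intervals of the remaining peaks overlap each other.

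Start-site windows from RefSeq (GRCm38.p6, 250 bases before to 50 after each start) were searched for the GLI consensus GACCACCCA on both strands. Of the 9 genes, 6 matched with 9 windows (Ski, Chd4, Sin3b, Sin3a, Hdac2 and Ncor1), and Chd3, Skil and Hdac1 did not match. None of the 9 windows held a peak of either list, as 0.353% of all 32851 windows did with doxycycline and 0.0274% without. All windows together belong to 27025 genes, more than the 21883 protein-coding genes, so shares of all windows cover a wider gene set. None held the consensus (0.253% of all windows) or a copy with at most 1 mismatch outside the CCACCC core (3.29%, exact copies included). The core alone, which is part of the consensus, was in 2 of the 9 windows, beside 31.5% of all windows. Those 2 stretches, from Chd4 (122 bases before the second start, chr6:125096029-125096058, plus strand) and Sin3b (41 bases before the start, chr8:72723217-72723246, plus strand), are shown with the core or its reverse complement GGGTGG in capitals, to show how far they are from the consensus: each matches 6 of its 9 bases. Beside them stands the closest match upstream of a start in the wider corepressor set described next, from Hdac9 (chr12:34917246-34917274, plus strand), with the 9-base match in capitals. It differs from the consensus by G1T, counted from 1 at the consensus's 5′ end. Of the 72 windows of that wider set, 0 held the consensus and 2 (2.78%) a copy with at most 1 mismatch, beside 3.29% of all windows.
Chd4: acctaaagaggaGGGTGGcggtagtggagg
Sin3b: cgccacgagtctCCACCCcctaggaggcgg
Hdac9: aataagatggTACCACCCAcattcaggac
No gene of these 3 had a doxycycline peak at the stretch shown, and Hdac9 had 0 doxycycline and 2 untreated summits within 50 kb.

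A further 59 genes of repressive complexes were then counted in the same way. With doxycycline 22 of 59 (37.3%) had a summit within 50 kb, beside 20.0% of all genes, and without it 15 of 59 (25.4%), beside 18.8%. Tle2, Tle5 and Tle6 are among the 22 through the same peak. The genes were 3.08 to 870 kb long, and no share over genes of matched length was computed for them. Summits of both lists were near 6 of the 59 genes, beside 4.97% of all genes, and 28 had neither. The share of all genes with neither is not given here, so the 28 are not read as a trait of the set. A −log10 q of 5 or more left 5 genes with doxycycline (8.47%, beside 8.41% of all genes) and 2 without (3.39%, beside 1.97%), so at that threshold the doxycycline share was near the background. The strongest doxycycline peak of the 22 genes had a median of 5.57-fold, beside 5.85-fold over the 4387 genes with one, and the strongest untreated peak of the 15 had 4.72-fold, beside 4.72-fold over 4121. The medians were thus close to those of other genes with a peak, and neither medians nor counts were tested.

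The counts by group stand beside 20.0% of all genes with a doxycycline summit and 18.8% with an untreated one. Of 4 other genes of the NCoR complex, 2 had a doxycycline summit and 0 an untreated one. Tbl1x, which encodes an adaptor subunit, had a peak inside the gene at 8.77-fold with 11 fragments. NuRD genes had 5 of 11 and 0 of 11, all 5 below a −log10 q of 5. SIN3 complex genes had 3 of 13 and 4 of 13. They included Ing1, a reader of methylated histone H3, at 8.64-fold and 30.4 kb, Brms1l with an untreated peak inside the gene at 5.50-fold, and Sap30l with peaks of both lists at 6.26-fold and 4.54-fold. Of the SKI and DACH relatives 2 of 4 had a doxycycline summit, the stronger at Skor1 (8.77-fold, 45.9 kb), which also had 2 untreated summits.

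CoREST genes had 2 of 6 near doxycycline and 4 of 6 near untreated summits, beside 20.0% and 18.8% of all genes. More genes near untreated summits were also counted for the SIN3 complex and the other histone deacetylases. Rcor1, its scaffold, had an untreated peak of 8 fragments at 7.07-fold, 41.9 kb away, and 0 doxycycline summits. Phf21a had an untreated peak of the same height inside the gene and doxycycline peaks of up to 4.39-fold. Kdm1a, the demethylase of the complex, had 1 peak of 5 fragments in each list. Of the other histone deacetylases 0 of 8 had a doxycycline summit and 3 of 8 an untreated one, and of PRC2 genes 1 of 5 and 1 of 5. The doxycycline one was Ezh1, a histone H3 lysine 27 methyltransferase, with a peak of 9 fragments at 7.31-fold, 47.5 kb away, and a weaker one inside the gene at 5.12-fold. CtBP genes had 1 of 2 and 0 of 2. Whether these groups differ from each other was not tested.

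**Figure D4:**
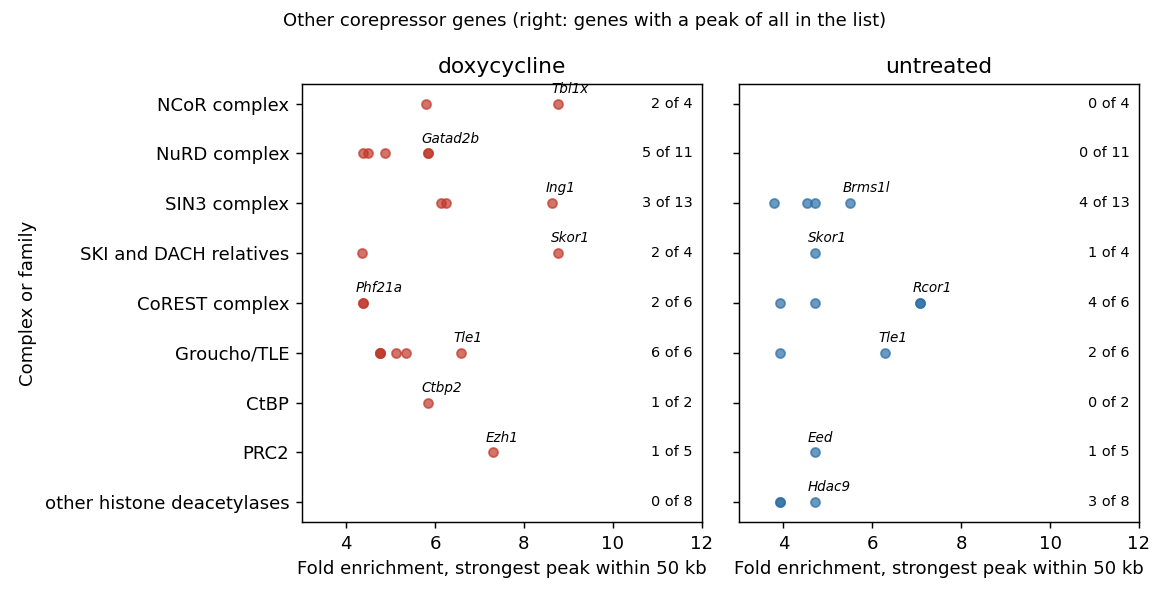
Fold enrichment of the strongest peak within 50 kb (x axis) for each of 59 other corepressor genes that had one, by complex or family and by condition; the numbers at the right give genes with a peak of all genes in the group. Tbl1x and Skor1 share the highest doxycycline value at 8.77-fold, and all 6 Groucho/TLE genes have a doxycycline peak, Tle2, Tle5 and Tle6 through the same one.

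Groucho/TLE genes encode corepressors of several developmental transcription factors. A doxycycline summit lay within 50 kb of 6 of 6 and an untreated one of 2 of 6, beside 20.0% and 18.8% of all genes. Only Tle1 had a doxycycline peak with a −log10 q of at least 5 (5.34). The 6 genes drew on 6 distinct doxycycline peaks, since Tle2, Tle5 and Tle6 are neighbours that share 1. Tle1 held the only peak of the wider set that was in both lists. Its summits were 6 bp apart inside the gene, with 8 fragments at 6.58-fold with doxycycline and 7 fragments at 6.29-fold without. Tle4 had a peak of 6 fragments with doxycycline and of 4 without, both inside the gene at different positions. Among the wider set, start-site windows of Tle2 and Tle3 were the only ones touched by a doxycycline peak (2 of 72 windows, beside 0.353% of all windows). These genes are named after their values were seen. The Tle3 summit was 153 bp downstream of the start at 5.34-fold with 7 fragments and a −log10 q of 3.41. The Tle2 summit was 32 bp upstream at 4.77-fold with 6 fragments and a −log10 q of 2.63.

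The 250 bases before the Tle2 start (chr10:81575037-81575286, plus strand) are printed because the doxycycline peak (chr10:81575188-81575331) covers their last 99 bases. The reverse complement of the GLI core, in capitals, is in this stretch but 57 bases outside the peak, and neither the consensus nor a 1-mismatch copy is in the window.
Tle2: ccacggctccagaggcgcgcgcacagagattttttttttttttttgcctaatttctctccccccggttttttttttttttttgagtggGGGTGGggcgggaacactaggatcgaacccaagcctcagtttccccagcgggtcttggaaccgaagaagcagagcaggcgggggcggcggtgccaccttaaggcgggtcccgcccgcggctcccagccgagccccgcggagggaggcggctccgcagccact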

How the data were processed

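ChIP-seq pull-downs were grouped by the sample titles, which name GLI3R where the treatment text names GLI1. The aligner Bowtie2 (2.3.2), SAMtools (1.5), the peak caller MACS2 (2.1.1) and the mm10 build are named in the submitters' processing notes; the labels give neither settings, nor whether replicates were pooled, nor whether the inputs served as control. The fold enrichment (a ratio) and the −log10 p and −log10 q at each summit are the authors' deposited values. The authors' deposited score, 10 times −log10 q without decimals in all 8019 peaks, and the summit offset, another deposited column, gave no further value. Rows sharing an interval (3725 and 4428 rows) were merged on the highest −log10 q.

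Pileup and expectation were solved for each peak as the whole number of fragments whose fold, with 1 added to both terms, and Poisson tail probability give the deposited pair. In each list 99.8% of peaks had such a solution, to 0.01 in −log10 p. Genes and start sites came from RefSeq tables (GRCm38.p6, the assembly of mm10), and coordinates count from 1. Exons and introns, and the sequence under the peaks, were not analysed here. Fragment totals per library were not analysed here, and intervals cover counting error only.

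The members and the lists of other corepressor genes were chosen with earlier results of these data known. The genes named are the members, genes nearer to a member's peak, the 2 ranked on each side of Chd3, and the 4 strongest per condition and all with both lists among the other corepressor genes. Kdm6b, Morn1, Hdac9, Tle2, Tle3, Tle5, Tle6 and Ptch1 fall outside this rule and were chosen after their values were seen. A further gene of these lists is left out of all counts and is not reported here. Alternatives changed the distance, peak threshold, assignment, row merging, overlap and motif. On simulated data, 100% of 2000 pileups were recovered, and 100% of 200 summits planted within 50 kb of 200 genes were found and 0 of those past it. Versions were scipy 1.17.1, numpy 2.4.6, matplotlib 3.10.9 and pandas 2.3.3, under Python 3.11.15.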

Additional observations from a re-analysis of the deposited data

How the results depend on the processing

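No paired analysis was possible because the deposited lists, 1 per condition, carry no values for single replicates. Within 50 kb, 5 of the 9 members had a doxycycline summit and 3 had an untreated summit. The doxycycline count was 2 with summits inside the gene only (6.16% of all genes), and 3 with the nearest gene only (12.4%), a −log10 q of 5 or more (8.41%), the top 1000 peaks (7.02%), or a pileup of at least 8 (8.77%), an alternative chosen after seeing the data. The untreated count was 0 inside the gene (5.96%) and 1 within 10 kb (8.60%), with a −log10 q of 5 or more (1.97%), among the top 1000 (4.75%) and with a pileup of at least 8 (1.93%). The 5 untreated summits fell to 1 within 10 kb, with a −log10 q of 5 or more and among the top 1000. Of the 59 other corepressor genes, 12 had a doxycycline summit within 10 kb (20.3%, beside 9.55% of all genes) and 9 an untreated one (15.3%, beside 8.60%). With a −log10 q of 5 or more these were 5 (8.47%, beside 8.41%) and 2 (3.39%, beside 1.97%). Fewer peaks pass these settings by construction. The counts within 100 kb, with all rows, and of shared peaks and GLI matches at the members stayed within 1.5 times. Within 100 kb the members stayed at 5 and 3 of 9, while the shares of all genes rose to 31.3% with doxycycline and 30.2% without. The other corepressor genes then numbered 28 (47.5%) and 18 (30.5%) of 59. Pileups of 4 to 7 fragments limit what the weaker peaks and absence from a list can show.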

Other observations

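The start-site windows touched by a doxycycline peak, 116 of the 32851 windows of 27025 genes, held the GLI consensus GACCACCCA in 5 cases (4.31%, beside 0.253% of all windows). A copy with at most 1 mismatch outside the core, exact copies included, was in 27 (23.3%, beside 3.29%). The CCACCC core was in 62.1% of them and in 31.5% of all windows. The comparison was made after the members' windows had been searched and was not tested. The windows of Tle2 and Tle3, which are among the 116, hold neither the consensus nor a 1-mismatch copy.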
